A study of Homo sapiens with 8 samples.

Results

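H3K27me3, trimethylation of histone H3 that the Polycomb enzyme PRC2 lays down at silent genes, was examined around 10 WNT ligand genes of MOLM14. This established line derives from human acute myeloid leukaemia and has a KMT2A fusion together with an activating FLT3 internal tandem duplication, FLT3 being a receptor kinase. The 10 genes were WNT1, WNT10B, WNT2, WNT3A, WNT5A, WNT6, WNT10A, WNT7A, WNT7B and WNT8B. Other WNT ligand genes were not analysed here. The 10 were chosen by name, with earlier results of these data known. Their starts are given to the nearest kb on GRCh37 (hg19), and every H3K27me3 peak within 5 kb and within 25 kb of a start was taken. Cells had received quizartinib (AC220), an inhibitor of the FLT3 kinase, or its solvent DMSO, each for 24 h, and Drosophila S2 cells had been mixed in before lysis in every group. The 4 chromatin immunoprecipitation libraries (AC220 1, AC220 2, DMSO 1 and DMSO 2) have 1 peak list each, and the 4 input samples of the series were not analysed here. Peak lists hold no expression, so the cell label was not checked against marker genes. All samples come from this single line, and no label says that libraries of a treatment were separate cultures, so the spread between them may be technical. Of 104660, 139812, 105063 and 117708 listed peaks in AC220 1, AC220 2, DMSO 1 and DMSO 2, 50, 43, 43 and 26 lay within 25 kb of a WNT start. The WNT1 and WNT10B starts are 6 kb apart and those of WNT6 and WNT10A 20 kb apart, so their windows share peaks and the 10 genes make 8 separate loci. The question put to these lists was whether FLT3 inhibition altered the extent of the mark around these 10 WNT ligand genes.

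WNT proteins are secreted, lipid-modified ligands. They bind Frizzled receptors on neighbouring cells, together with LRP co-receptors when the signal runs through beta-catenin, or with other co-receptors when it runs through planar polarity and calcium branches. Most WNT genes are used in embryonic patterning and are silent in most adult cell types, where PRC2 commonly marks their CpG-rich starts. In mouse models of KMT2A-rearranged leukaemia, beta-catenin signalling is known to support leukaemia stem cells.

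The promoters of 4 of these genes are shown because they span the range of CpG content and of H3K27me3 extent described below. WNT5A had the highest and WNT10A the lowest mean covered share near the start among genes with a RefSeq promoter entry, WNT3A had the most CpG and WNT8B the fewest. Each runs 5′ to 3′ from 250 bases before to 50 after the RefSeq start, and capitals mark every CG dinucleotide, which reads the same on both strands. Positions are those of RefSeq on GRCh38.p14, a different build from that of the peaks: WNT5A at chr3:55487257-55487556, minus strand; WNT3A at chr1:228006748-228007047, plus strand; WNT8B at chr10:100462759-100463058, plus strand; WNT10A at chr2:218880602-218880901, plus strand.
WNT5A: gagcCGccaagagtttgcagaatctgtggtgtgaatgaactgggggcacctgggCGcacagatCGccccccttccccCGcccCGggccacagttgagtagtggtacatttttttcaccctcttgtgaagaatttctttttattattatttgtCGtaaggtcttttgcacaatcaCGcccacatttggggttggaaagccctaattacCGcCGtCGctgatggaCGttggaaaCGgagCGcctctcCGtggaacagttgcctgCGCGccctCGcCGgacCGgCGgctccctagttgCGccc
WNT3A: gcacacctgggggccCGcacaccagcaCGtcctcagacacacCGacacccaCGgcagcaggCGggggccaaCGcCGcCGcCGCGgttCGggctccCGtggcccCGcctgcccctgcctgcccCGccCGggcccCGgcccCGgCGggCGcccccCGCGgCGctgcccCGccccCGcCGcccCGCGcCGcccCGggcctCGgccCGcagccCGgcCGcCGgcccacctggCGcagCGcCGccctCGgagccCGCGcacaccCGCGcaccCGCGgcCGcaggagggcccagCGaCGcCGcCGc
WNT8B: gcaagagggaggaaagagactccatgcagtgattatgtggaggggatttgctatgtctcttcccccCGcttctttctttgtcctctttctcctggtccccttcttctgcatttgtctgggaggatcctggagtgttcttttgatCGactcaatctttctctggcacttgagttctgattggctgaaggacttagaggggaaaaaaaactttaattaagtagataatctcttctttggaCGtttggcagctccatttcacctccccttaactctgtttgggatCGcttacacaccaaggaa
WNT10A: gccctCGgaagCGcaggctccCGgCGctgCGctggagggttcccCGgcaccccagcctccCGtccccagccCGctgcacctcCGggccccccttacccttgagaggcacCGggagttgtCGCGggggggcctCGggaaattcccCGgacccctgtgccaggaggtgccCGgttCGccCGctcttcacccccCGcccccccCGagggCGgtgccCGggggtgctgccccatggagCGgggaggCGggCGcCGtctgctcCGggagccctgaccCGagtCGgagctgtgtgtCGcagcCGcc

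Of the 10 genes, 8 had an entry, WNT5A with 2 entries of which the first listed is shown. The 300 bases of WNT3A held 49 CpG and those of WNT8B 4, against a median of 14 over the 35116 promoters of the table, of which 96.0% held at least 1. WNT2, WNT7A, WNT6, WNT1 and WNT10A had 43, 40, 37, 34 and 30 CpG, and the WNT5A entries 21 and 22. A GC share of at least 50% with an observed-to-expected CpG ratio of at least 0.6 was met by 8 of the 9 entries, WNT8B being the exception with a GC share of 45.7% and a ratio of 0.26. Of all promoters in the table, 46.9% met it. CpG content did not order the genes by their mark: WNT8B, the poorest in CpG, had 82.7% of the bases near its start covered on average over the 4 libraries, and WNT10A, with 30 CpG, had 10.2%.

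Peak lists differed in extent before any WNT gene was considered. On chromosomes 1 to 22 and X, peaks covered 6.32% of the sequence in AC220 1 and 16.3% in AC220 2, against 7.63% in DMSO 1 and 19.4% in DMSO 2. AC220 1 and DMSO 1 are called set 1, AC220 2 and DMSO 2 set 2, and treatments are compared within each set. Read depth is unknown from peak lists, and the mark per cell was not measured. With 2 libraries against 2, a two-sided exact permutation p cannot go below 0.333. Counts of genes are therefore read against the same rule applied to tiles of the genome.

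H3K27me3 took different forms around the WNT starts. WNT5A, WNT3A, WNT8B, WNT7A and WNT2 lay in broad domains, with at least 25% of the bases within 25 kb covered on average over the 4 libraries, a threshold chosen after the values were seen. WNT1 and WNT6 had a peak confined to less than 8 kb at the start and little beyond it. WNT10A had peaks near its start only in set 2, and WNT10B and WNT7B had no listed peak within 5 kb in any library. In all, 7 of the 10 genes had a peak within 5 kb of the start in every library, while 19.6% of 303618 tiles of 10 kb were covered to any extent in every library. Averaged over the 10 genes, the covered share within 5 kb was 45.7% in AC220 1 and 60.9% in AC220 2, against 37.7% in DMSO 1 and 58.1% in DMSO 2, each above the share of the genome covered in the same library. Within 25 kb the averages were 20.65% and 42.5% with AC220 against 23.1% and 45.7% with DMSO. The tiles are not centred on gene starts, and the 10 genes were chosen with earlier results of these data known. Shares of the genes and of the genome are therefore a description and not a test of enrichment at WNT genes.

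**Figure D1:**
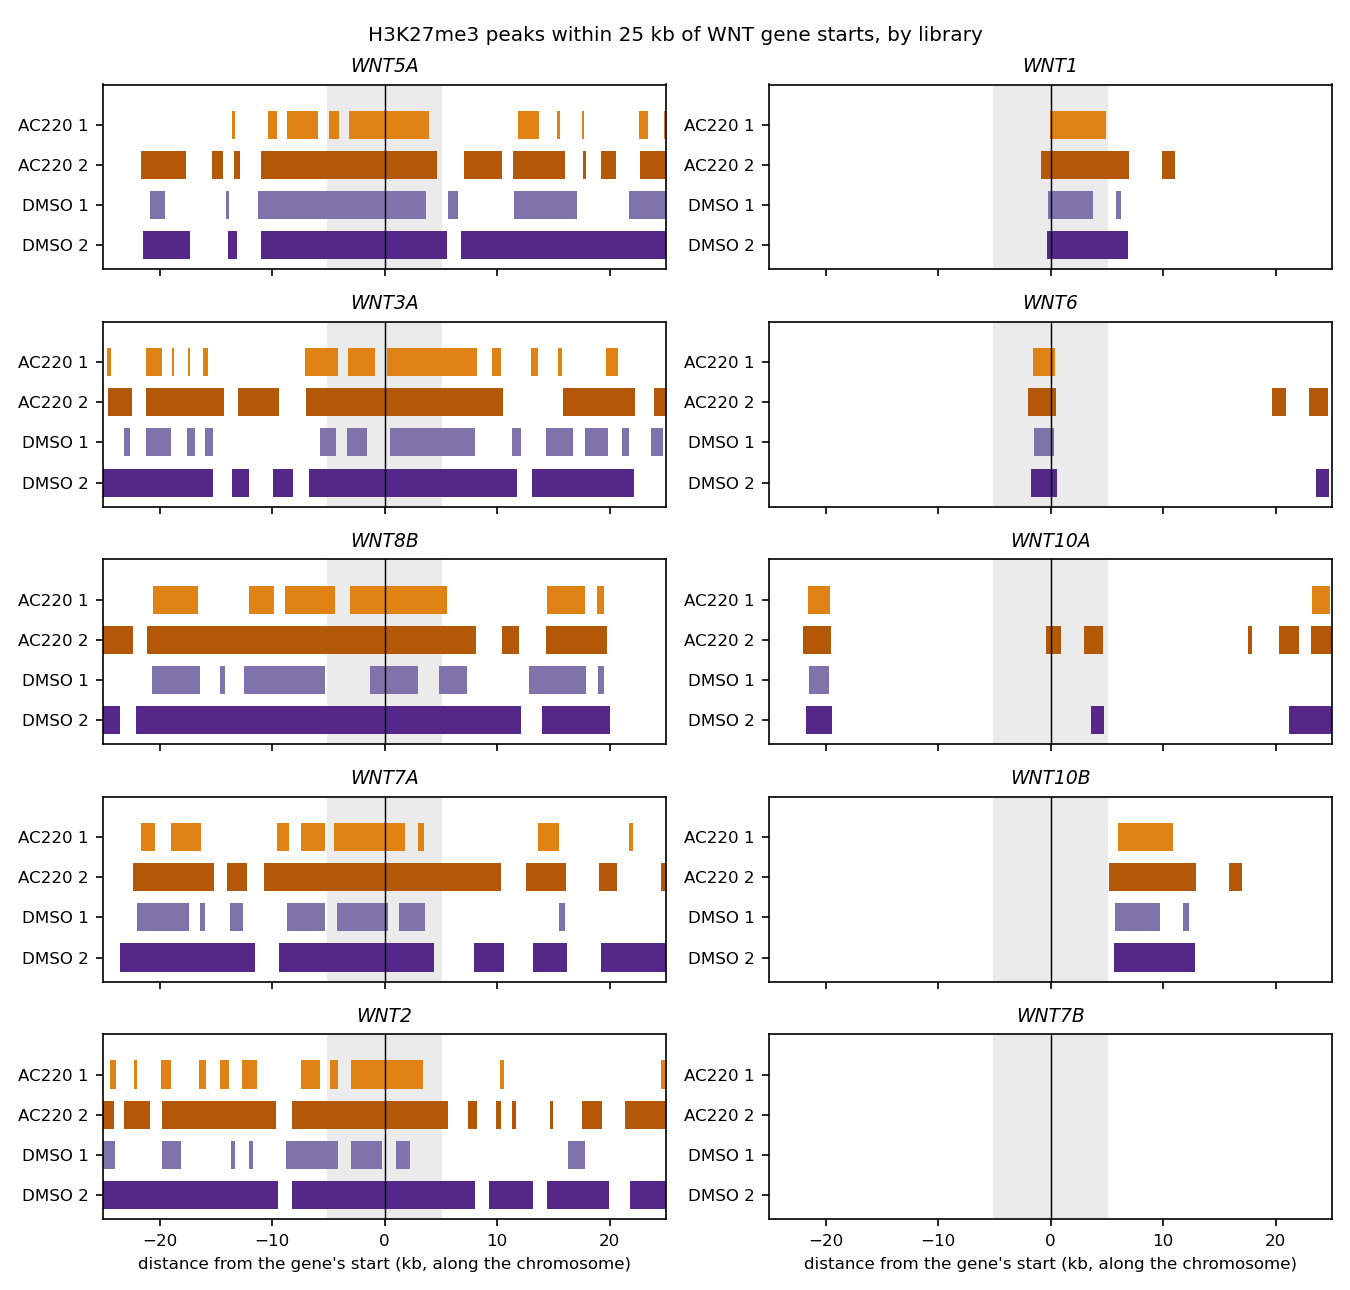
H3K27me3 peaks within 25 kb of each WNT start, with distance along the chromosome in kb on the horizontal axis and 1 row per library, AC220 above DMSO; bars are listed peaks cut at the window edge, the grey band is the 5 kb to each side and the line is the start. WNT5A, WNT3A, WNT8B, WNT7A and WNT2 lie in broad domains, WNT1 and WNT6 have a peak at the start and little beyond it, and WNT7B has none.

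WNT5A, a ligand of the branches that do not use beta-catenin and needed for limb and axis outgrowth in the mouse, had the highest covered share near the start and the largest difference within 25 kb on average over libraries and sets. In single libraries WNT8B stood above it near the start in AC220 1. In AC220 2 WNT2, WNT3A, WNT7A and WNT8B did so, all at 100%. In set 2 WNT2 differed more within 25 kb. Within 5 kb, peaks covered 80.8% in AC220 1 and 96.3% in AC220 2, against 87.1% in DMSO 1 and 100% in DMSO 2. Within 25 kb they covered 30.5% and 66.2% with AC220, against 52.7% and 79.5% with DMSO. The difference, AC220 minus DMSO, was -22.2 percentage points in set 1 and -13.3 in set 2, although AC220 2 exceeded DMSO 1. The means were 48.3% ± 25.3 with AC220 and 66.1% ± 18.9 with DMSO (SD, n = 2 each), and these SDs hold the gap between the sets. A test that leaves the sets out gave no separation (exact permutation test, two-sided, p = 0.667). With 2 libraries against 2 it cannot tell whether the difference exceeds the spread between replicates. The peak over the start was 7.16 kb wide in AC220 1 (chromosome 3, 55517813 to 55524968) and 15.6 kb in AC220 2, against 14.9 kb in DMSO 1 (55509768 to 55524707) and 16.5 kb in DMSO 2. In AC220 1 the downstream side of that domain, towards the gene body, was listed as several short peaks. WNT5A was also split more often across the 50 kb, into 10 and 9 peaks with AC220 against 6 and 4 with DMSO.

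WNT3A and WNT2 encode ligands that act through beta-catenin; in the mouse Wnt3a is needed for trunk mesoderm and Wnt2 takes part in lung specification. WNT3A was covered to 79.9% and 100% within 5 kb in AC220 1 and AC220 2, against 69.8% and 100% in DMSO 1 and DMSO 2. Within 25 kb WNT3A had 37.6% and 75.5% with AC220, against 43.2% and 81.0% with DMSO, a difference of -5.64 points in set 1 and -5.47 in set 2. WNT2 was covered to 70.8% and 100% within 5 kb with AC220, against 49.1% and 100% with DMSO. Within 25 kb WNT2 had 28.4% and 68.7% with AC220, against 27.3% and 88.9% with DMSO, so that the sets differed: 1.09 points in set 1 and -20.2 in set 2. A peak over the start was listed in 3 of the 4 libraries at WNT2 and in both set 2 libraries at WNT3A. The nearest peak otherwise lay 0.20 kb away at WNT2 in DMSO 1, and at WNT3A 0.19 kb away in AC220 1 and 0.50 kb in DMSO 1, distances within the rounding of the starts to 1 kb.

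WNT8B, a beta-catenin ligand of the developing forebrain, showed the largest difference near the start, and in set 1 alone. Peaks covered 86.6% within 5 kb in AC220 1 and 100% in AC220 2, against 44.2% in DMSO 1 and 100% in DMSO 2. The peak over the start was 8.62 kb in AC220 1 (chromosome 10, 102219938 to 102228554) and 29.2 kb in AC220 2, against 4.25 kb in DMSO 1 (102221732 to 102225979) and 34.2 kb in DMSO 2. Set 1 peaks there were faint: the deposited -log10 q of the peak over the start was 1.73 in AC220 1 and 1.71 in DMSO 1. With peaks of -log10 q of at least 2 alone, the 5 kb share in set 1 was 5.97% in AC220 1 and 0% in DMSO 1. The same threshold turned the set 1 difference round at WNT2, at 0% in AC220 1 against 27.7% in DMSO 1, and widened it at WNT3A, at 71.3% in AC220 1 against 18.1% in DMSO 1. Within 25 kb WNT8B had 46.4% and 77.55% with AC220, against 48.2% and 83.4% with DMSO.

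WNT7A, which sets dorsal limb identity in the mouse, was covered to 69.0% and 100% within 5 kb with AC220, against 68.3% and 93.6% with DMSO. Its 25 kb shares were 32.4% and 71.3% with AC220, against 34.0% and 74.5% with DMSO, a difference of -1.60 points in set 1 and -3.14 in set 2. The peak over the WNT7A start was wider with AC220 in both sets, at 6.32 kb and 21.0 kb with AC220 against 4.55 kb and 13.8 kb with DMSO.

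WNT1, first known as a site of mouse mammary tumour virus insertion and a beta-catenin ligand of the midbrain, carried the peak of highest fold enrichment among these genes in every library but DMSO 1, where WNT7A had 4.47. The deposited fold enrichment was 4.10 in AC220 1, 4.38 in AC220 2, 4.30 in DMSO 1 and 4.51 in DMSO 2. Each value was above at least 99.8% of the peaks of its library. The peak began close to the start, at -0.83 to -0.03 kb from it, and ran over the gene. The 5 kb downstream were covered to 98.3% and 100% with AC220 and 74.6% and 100% with DMSO, and the 5 kb upstream over 0.68% and 16.6% with AC220 and 5.20% and 7.14% with DMSO. The WNT1 peak was wider with AC220 in both sets, at 4.95 kb (chromosome 12, 49371967 to 49376913) and 7.78 kb with AC220, against 3.99 kb (49371741 to 49375731) and 7.22 kb with DMSO. WNT10B, a ligand that favours bone over fat in the mouse, lies next to WNT1; the same peak was the nearest listed one, 5.17 to 5.97 kb from the WNT10B start, and no library had a peak within 5 kb of that start.

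WNT6 and WNT10A are neighbours with different patterns. At WNT6, a ligand that promotes epithelial somites in the chick, a peak lay on the start in all 4 libraries, 2.04 kb and 2.48 kb wide with AC220 and 1.85 kb and 2.25 kb with DMSO. Peaks within 5 kb of the WNT6 start covered 20.4% and 24.75% with AC220, against 18.5% and 22.55% with DMSO. The deposited fold of the WNT6 peak was 2.63 and 2.96 with AC220 against 3.36 and 3.50 with DMSO, and its rank was lowest in AC220 1, where it stood above 42.3% of peaks, against 98.4% in AC220 2, 94.3% in DMSO 1 and 99.3% in DMSO 2. WNT10A, a ligand of teeth and other ectodermal organs, was covered to 0% and 29.5% within 5 kb with AC220, against 0% and 11.1% with DMSO. In AC220 2 a peak of 1.27 kb covered the WNT10A start, while in DMSO 2 the nearest peak lay 3.58 kb away. WNT7B, a ligand of lung and brain vessel development in the mouse, had no listed peak within 25 kb in any library, and the nearest lay 44.9 to 48.7 kb away with AC220 and 44.8 to 46.5 kb away with DMSO. Whether the lists used here are complete around the WNT7B and WNT10B starts is not known, so these zeros describe the lists and not the chromatin.

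**Figure D2:**
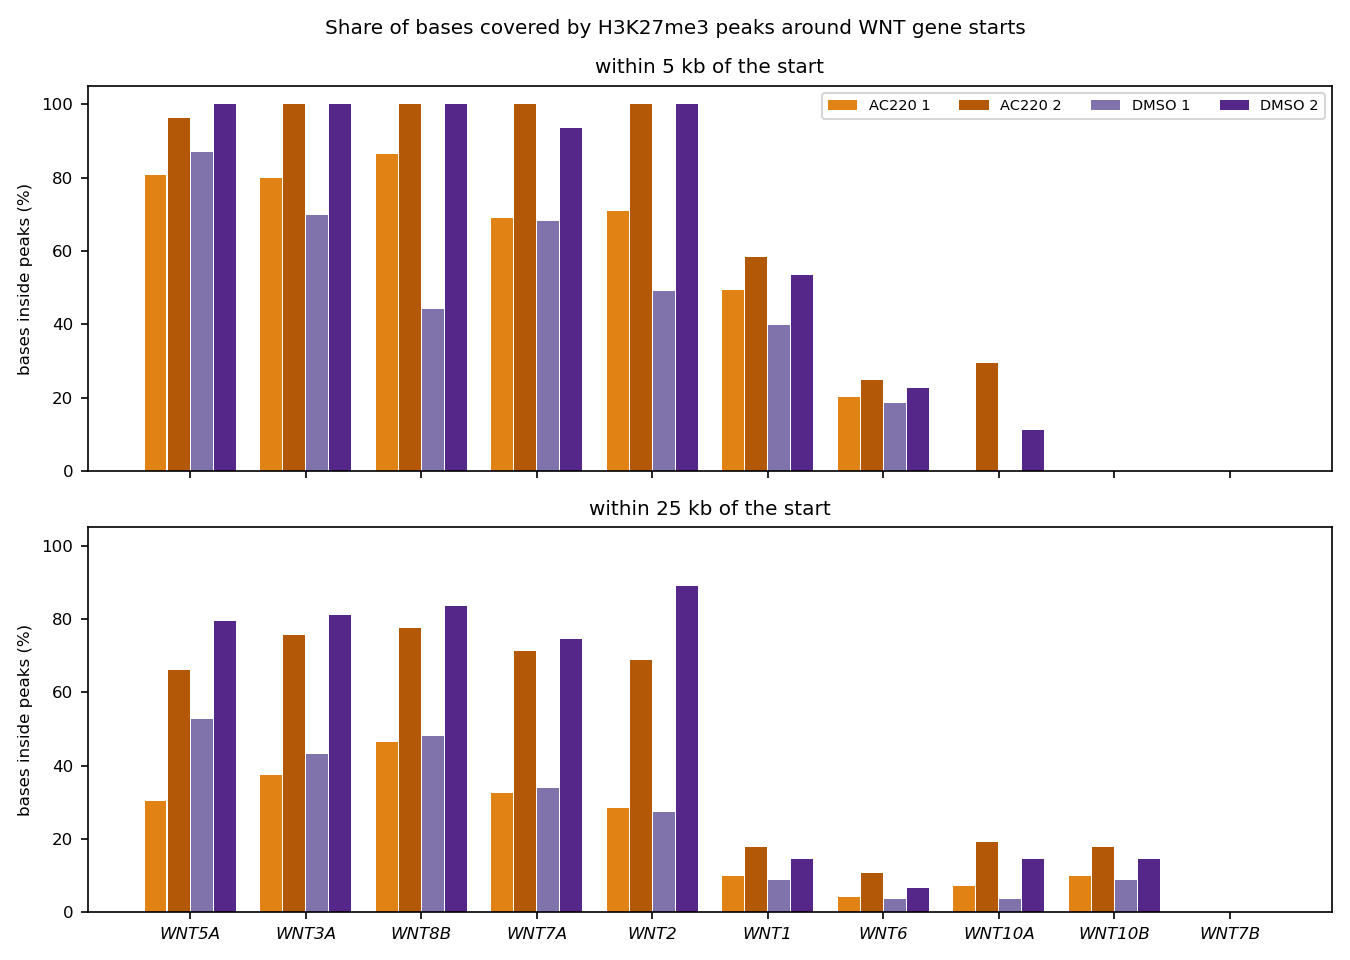
Share of bases inside H3K27me3 peaks (percent) within 5 kb (top) and within 25 kb (bottom) of each WNT start, 1 bar per library with AC220 left of DMSO. Near the start the AC220 bars are as high as or higher than the DMSO bars of the same number except at WNT5A, and within 25 kb DMSO is higher at WNT5A, WNT3A, WNT8B and WNT7A in both sets.

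Compared within sets, no WNT gene was lower with AC220 by 5 percentage points or more in both sets near the start, and none was higher in both. Of 124960 tiles of 10 kb with any covered base, 16.7% were lower by this rule and 3.60% higher. Of the 58831 tiles with a mean covered share of at least 25%, to which 6 of the 10 WNT windows correspond, 26.9% were lower and 5.02% higher. The median difference over the 10 genes was 1.25 points in set 1 and 0 in set 2, with AC220 minus DMSO, against 0 and -5.30 points over tiles with any covered base and -5.02 and -5.03 over the denser tiles. The 10 include WNT10B and WNT7B with no covered base, so their median is not one of windows like those tiles. The 6 denser windows ran from -6.23 (WNT5A) to 42.4 points (WNT8B) in set 1, and from -3.68 (WNT5A) to 6.44 (WNT7A) in set 2. In set 1 alone, WNT8B, WNT2, WNT3A and WNT1 were higher with AC220 by at least 5 points and WNT5A was lower. In set 2, WNT10A and WNT7A were higher and none was lower, with WNT2, WNT3A and WNT8B covered completely under both treatments, where a gain could not show.

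Within 25 kb, WNT5A and WNT3A were lower with AC220 by 5 points or more in both sets, 2 of the 10 genes, and none was higher. Of 35541 tiles of 50 kb with any covered base 13.9% were lower and 0.875% higher, and of the 12055 tiles with a mean share of at least 25%, the kind that holds the 5 genes in broad domains, 31.7% were lower and 1.71% higher. The count of 2 thus lay near the background. Set 1 alone gave the same genes, and set 2 alone, without AC220 1 and DMSO 1, gave 4, with WNT2 and WNT8B added. The median difference over the 10 genes was 0.18 points in set 1 and -1.57 in set 2, against -0.07 and -3.31 over tiles with any covered base and -4.70 and -5.97 over the denser tiles. The 10 include genes with little or no covered sequence, so their median is not one of windows like those tiles. Among the 5 genes in broad domains the middle value was that of WNT8B, -1.74 points in set 1 and -5.85 in set 2. The count of lower genes came to 1 gene, WNT5A, with the weakest DMSO peaks dropped until covered lengths were equal within a set, and to 0 when all lists were trimmed to the shortest. The direction at WNT3A turned in both cases, to 5.21 points in set 1 and 0.94 in set 2 with DMSO lists trimmed, and to 5.21 and 16.3 with all lists trimmed, where WNT3A counted as higher. By the stricter rule that the smaller share of one treatment exceed the larger share of the other by 25 points, no gene was called at either distance. Of tiles with any covered base, 0.0208% of those of 10 kb and 0% of those of 50 kb were called.

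The broad domains were also compared by distance from the start. Over WNT5A, WNT3A, WNT8B, WNT7A and WNT2, the mean share within 2 kb of the start was 93.7% in AC220 1 and 100% in AC220 2, against 74.8% in DMSO 1 and 100% in DMSO 2. Between 15 and 20 kb from the start it was 27.9% and 74.2% with AC220, against 44.6% and 88.5% with DMSO. At that distance the genes ran from -42.8 points (WNT3A) to -0.83 (WNT8B) in set 1, and from -33.65 (WNT2) to -0.07 (WNT7A) in set 2. From 5 kb outwards in steps of 5 kb, the mean difference in set 1 was -11.0, -7.34, -16.7 and -8.78 points, with no steady trend. In set 2 it was -4.96, -12.0, -14.3 and -17.2 points. Taking 5 to 25 kb together, the outer part of all 5 genes was covered less with AC220 in both sets, and by at least 5 points in both for WNT3A, WNT5A and WNT8B. In set 2 alone, without AC220 1 and DMSO 1, all 5 were lower by that much. With DMSO lists trimmed to AC220 length, 3 of the 5 were lower in both sets at any size and 2 by 5 points, and with all lists trimmed to the shortest 1 was, by either rule. In 28.4% of 5719 tiles of 50 kb with a mean share of at least 25% and a middle 10 kb covered to at least 50%, the outer part was lower by 5 points or more in both sets. No tile share is given for a difference of any size or for set 2 alone, so those counts have no background. Whole 50 kb tiles with a mean share of at least 25% had median differences of -4.70 points in set 1 and -5.97 in set 2.

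In set 1 the difference near the start exceeded that in the outer part at all 5 genes, and by 5 points or more at WNT2, WNT3A, WNT5A and WNT8B. In set 2 WNT2, WNT3A and WNT8B were fully covered near the start under both treatments, where a gain could not show. No loss near the start appeared there, so their set 2 excess is the outer difference with its sign changed. The near difference exceeded the outer one by 19.98 points in set 1 and 11.99 in set 2 at WNT5A, and by 2.84 and 11.97 at WNT7A. The set 1 excess was 25.8 points at WNT2, 19.7 at WNT3A and 55.1 at WNT8B, and the set 2 values were 25.3, 6.84 and 7.31 in the same order. By the 5 point rule in both sets 4 genes were counted, and 12.2% of the 5719 tiles. Tiles are not centred on starts, so this share is a description and not a test of these genes, and this contrast was chosen after the values were seen. The count of 4 fell to 2 with peaks of -log10 q of at least 2, and likewise when lists were trimmed in either way. It rose to 5 with peaks under 1 kb apart joined.

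**Figure D3:**
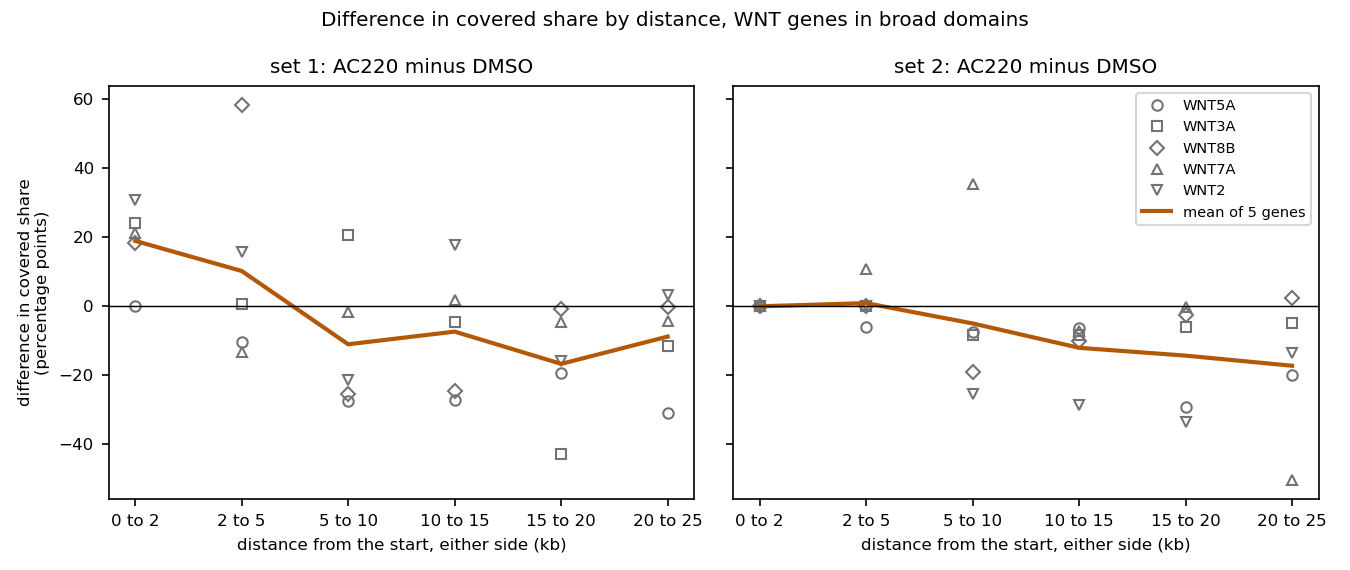
AC220 minus DMSO difference in covered share (percentage points) against distance from the start in kb, both sides together, for the 5 WNT genes in broad domains, with set 1 on the left and set 2 on the right; symbols are genes and the line is their mean. In set 1 the mean is 18.97 points at 0 to 2 kb and -16.7 at 15 to 20 kb, and in set 2 it is -17.2 at 20 to 25 kb, while the 0 at 0 to 2 kb stands for 100% at all 5 genes in both set 2 libraries, where no gain could show.

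The number and width of listed peaks also differed. WNT5A, WNT2, WNT7A and WNT10A had more peaks within 25 kb in both sets, 4 of the 10 genes, against 16.6% of the 35541 tiles of 50 kb with any covered base. For WNT2 there were 11 and 10 peaks with AC220 against 8 and 5 with DMSO. Among the 12055 tiles with a mean share of at least 25%, the class of WNT5A, WNT2 and WNT7A but not of WNT10A, 31.4% had more peaks with AC220 in both sets. The widest peak within 25 kb was narrower with AC220 in both sets at WNT5A, and wider in both at WNT7A, WNT6, WNT1 and, through the shared peak, WNT10B. These were 1 and 4 of the 9 genes with a peak in every library. Of 21908 tiles of 50 kb with a peak in every library, 51.5% had a narrower and 10.4% a wider widest peak with AC220 in both sets. In the count of 4, WNT1 and WNT10B stand for the same peak, so the genes are not separate windows as the tiles are. At WNT6 the widths differed little, at 2.04 and 2.48 kb with AC220 against 1.85 and 2.25 kb with DMSO. Neighbouring peaks can belong to a single domain, so these widths are those of listed peaks.

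The strongest peak within 25 kb, by the authors' fold enrichment over the background of its own library, was ranked among all peaks of that library. A strongest peak among several ranks high by its choice: in the 12037 tiles of 50 kb with a peak in every library and a mean share of at least 25%, its median rank was above 90.6% and 94.2% of peaks in AC220 1 and AC220 2, and 90.8% and 93.8% in DMSO 1 and DMSO 2. At WNT7A it stood above 99.7% and 99.0% of peaks with AC220 and 99.9% and 99.4% with DMSO, and at WNT5A above 98.1% and 99.6% with AC220 and 98.9% and 99.3% with DMSO. For WNT8B these ranks were 97.9% and 99.1% with AC220 and 93.5% and 96.8% with DMSO. For WNT2 they were 90.3% and 98.2%, then 97.4% and 97.4%, and for WNT3A 89.1% and 97.6%, then 95.9% and 92.5%. Both fell below the tile median in AC220 1, as did WNT3A in DMSO 2. At WNT8B the strongest peak lay off the start, centred 16.1 kb and 17.05 kb beyond it with AC220, and 14.4 kb before and 17.0 kb beyond it with DMSO. Fold values of different lists rest on different backgrounds, so they are given side by side and not compared.

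**Figure D4:**
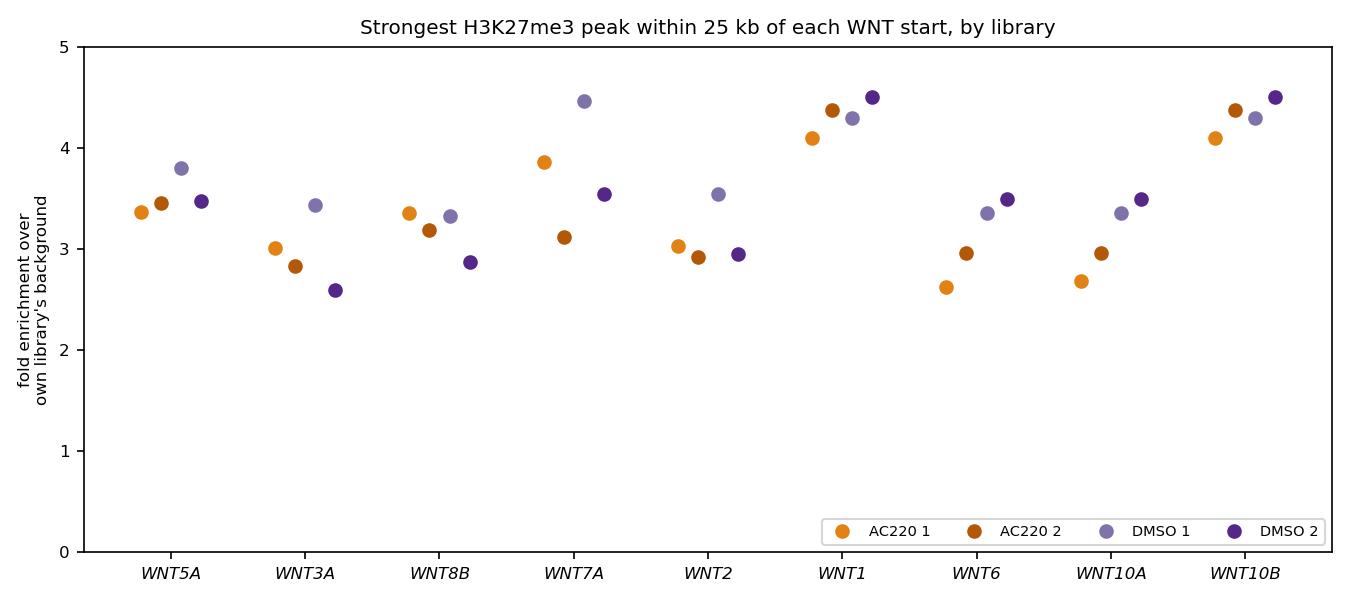
Deposited fold enrichment of the strongest H3K27me3 peak within 25 kb of each WNT start, 1 point per library with AC220 left of DMSO; WNT7B had no peak, WNT1 and WNT10B share theirs, and WNT6 and WNT10A share theirs in all libraries but AC220 1. The WNT1 peak has the highest values, between 4.10 and 4.51, apart from the WNT7A peak in DMSO 1 at 4.47.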

How the data were processed

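H3K27me3 chromatin immunoprecipitation and sequencing was analysed through the 1 broad peak list that the authors deposited for each of 4 libraries. The tools BWA (0.7.10-r789) and MACS2 (2.1) appear, with no role, per the submitters' processing notes. Use of inputs or Drosophila reads in calling was not stated. Fold enrichment, as deposited, is a ratio over the background of the peak's own library. The authors' lists give p and q of each peak as -log10, with a lowest -log10 q of 1, and a deposited score of 10 times the -log10 q, rounded down, for at least 99.99% of each list. No list gives read counts, so depth is unknown and no counting interval is given. The build is not stated; contig names and ends matched GRCh37, with 0 peaks past a chromosome end, against 1997 on GRCh38.

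Treatment and replicate number came from the sample titles. Covered shares, peak widths and ranks were computed with pandas 2.3.3 and numpy 2.4.6 under Python 3.11.15, and positions count from 1. A gene was called lower or higher when AC220 differed from DMSO by 5 percentage points in the same direction within both numbers. All 10 kb and 50 kb tiles of chromosomes 1 to 22 and X gave the background. For single genes, a two-sided exact permutation test used all 6 assignments of the libraries to treatments. The functions were tested on simulated lists. Strand and promoters came from RefSeq (GRCh38.p14), whose coordinates were not used with the peaks. Other WNT pathway genes, further WNT ligands among them, were planned only with an annotation of the peaks' build and were not analysed here. All 10 genes are named by rule; of the 4 promoters shown, WNT3A and WNT8B, and WNT10A in place of genes with no entry, were chosen after values were seen. Genes, lists and rules were chosen with earlier results of these data known.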

Additional observations from a re-analysis of the deposited data

How the results depend on the processing

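The 25 point rule, met by no gene and hardly any tile, says little about stability. Without DMSO replicate 2, WNT8B near the start met it, its mean share being 49.1 points higher with AC220. Genes higher with AC220 in both sets within 5 kb, 0 as reported, numbered 1 with peaks under 1 kb apart joined and 3 when any difference counted; those lower, also 0, numbered 1 when starts were moved up by 1 kb, with windows of 10 kb and when any difference counted. Within 25 kb, genes lower in both sets (2) numbered 1 with DMSO lists trimmed to AC220 length, with starts moved by 1 kb either way and at a tolerance of 10 points. They numbered 0 with all lists trimmed to the shortest, 3 with peaks under 1 kb wide left out and 4 when any difference counted. Genes higher (0) numbered 1 with all lists trimmed and 4 when any difference counted. Without a library, the whole set alone gave 2 to 4 higher and 0 to 1 lower within 5 kb and 2 to 4 lower within 25 kb; without AC220 1 or DMSO 1 the last was 4, and without AC220 2 or DMSO 2 the first was 4. Of the 5 genes in broad domains, 2 had a near difference above the outer one by 5 points with -log10 q of at least 2 and with either trimming, against 4 as reported. With peaks under 1 kb apart joined, 5 had. Leaving out peaks under 1 kb wide gave 4 of them a lower outer part in both sets. Their outer part was lower in both sets for 3 genes as reported, 1 with all lists trimmed, 2 with DMSO lists trimmed or -log10 q of at least 2, and 3 to 5 without a library. These last alternatives were added after seeing the data. The cause of these changes was not tested.

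The medians here are not those per set given above: each gene's libraries were averaged by treatment before the difference was taken. So computed, the median over the 10 genes was 4.30 points within 5 kb and -1.18 within 25 kb. Over tiles with any covered base it was -4.18 and -2.25, but the 10 genes include windows with no covered base. Leaving out 1 library unbalances the sets: the median over the genes then ran from -3.35 to 14.4 points within 5 kb and from -11.3 to 8.08 within 25 kb. With the number as a replicate block the medians were again 4.30 and -1.18 points, and no p could go below 0.5. The 25 kb median changed sign to 2.46 with DMSO lists trimmed and 1.21 with all lists trimmed. Same-numbered libraries deviated together over 10 kb tiles (r = 0.59), but the labels give them only a shared number. Lists numbered 2 also covered more of the sequence under both treatments, 16.3% with AC220 and 19.4% with DMSO, against 6.32% and 7.63% for number 1. Whether r goes beyond this difference in extent was not tested.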
